A study of Daphnia magna with 48 samples.

Results

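Described here are the 100 transcripts of *Daphnia magna*, of 6050 measured, that came closest to being absent in 1 clone while present in the other 3. They were chosen by their measured levels. The reads of the 12 libraries of each clone were pooled and scaled to CPM, the reads of a transcript per 1000000 reads, and each transcript was scored as log2 of the lowest CPM among the other 3 clones plus 1 over the CPM of the clone with the least plus 1. The 100 highest scores were taken, so that the low level in a clone is what chose these transcripts and is given as a description, with no test. Of the 100 transcripts, 96 were nearly absent in clone HU and 4 in clone IL, and 0 in clones FI and GB.

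The study asked how rearing in chronic mild intermittent hypoxia (CMIH) and short acute severe hypoxia (ASH) act together in clones of different origin. The clones were FI-FSP1-16-2 (FI) and IL-M1-8 (IL) from intermittent ponds, and GB-EL75-69 (GB) and HU-K-6 (HU), which the study grouped as permanent. The site of HU is a shallow soda lake of high salinity and pH that dries out in some years. Females were taken at an age of 25 days from tanks that they had entered some days after birth. Tank oxygen was adjusted at intervals each day to 8 mg/L (normoxia) or lowered to 4 mg/L (CMIH), and drifted in between. The females were then sampled after 12 h at no more than 1 mg/L (ASH) or without acute exposure (control). The sources differ on the controls: the deposited design has them taken straight from rearing, whereas the study's methods have RNA controls kept unfed in flasks at their rearing oxygen until ASH animals were sampled. Each of the 16 combinations had 3 libraries, each from the whole bodies of 2 pooled females, so that every group shared the same age and sex. Each clone is 1 genotype and stands alone for its place. The 12 barcoded samples of a clone went into 3 replicate preparations, which were purified separately and sequenced together, apart from other clones. The clone, its library preparations and its sequencing run can therefore not be told apart anywhere below.

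*Daphnia* females reproduce without sex when conditions are good, and a clone is a line of such females with the same genome. Clones from different ponds differ in sequence and can differ in which gene copies they carry. Low oxygen is known to raise hemoglobin and to shift energy metabolism in *Daphnia*. The globin precursors looked up by identifier were not among the 100 transcripts, and other globins of the study were not checked. Of those looked up, 3F39.53, 35F4.44 and 0F43.50 had their lowest level in HU, at ranks 709, 2682 and 3544 of the score. The precursor 11F0.55 was lowest in IL, at rank 583. In bulk samples of whole animals, fewer cells of a type and less RNA per cell cannot be told apart.

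Transcripts are called here by the contig and gene number in their identifiers: 13F7.68 is gene 68 of block 7 on contig 13 of the reference assembly. The identifiers carry no gene names, 0 of the 6050 matched the gene table at hand, and what the 100 transcripts encode is not given here. Libraries held 16894 to 408355 reads on the 6050 transcripts. Pooled by clone, these came to 888830 reads for FI, 3043953 for IL, 2896525 for GB and 1088476 for HU. A count of 0 allows a true level of up to 3 reads, which corresponds to 2.76 CPM in the pooled HU libraries and to 0.986 CPM in those of IL. Intervals from these counts cover counting error only, since the libraries were amplified without molecular identifiers.

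**Figure D1:**
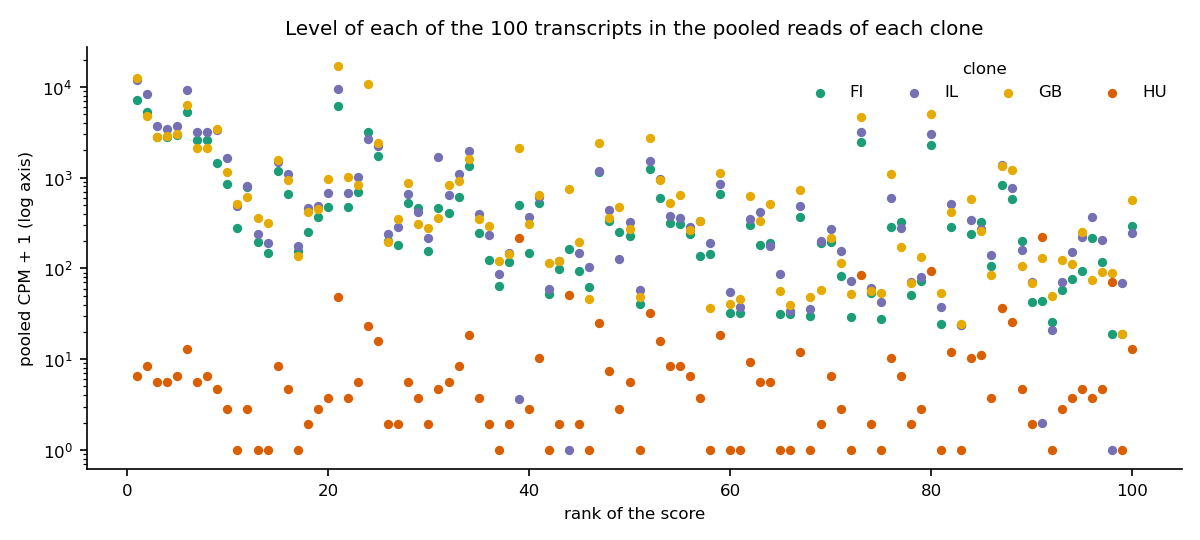
Pooled CPM plus 1 (log axis) of each of the 100 transcripts in the 4 clones, by rank of the score, 1 point per clone. The points of HU lie far below those of the other clones, at 1 where the 12 HU libraries held 0 reads, except at 4 ranks where IL is the low clone.

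The low level in HU was found in single libraries as well as in the pooled reads. The 96 transcripts made up 1.88% to 11.0% of the reads of the 12 FI libraries (median 6.71%). In IL they made up 7.69% to 13.1% (median 10.8%), and in GB 8.27% to 13.1% (median 11.6%). In HU the range was 0.0253% to 0.138% (median 0.0607%). No HU library came near any library of the other clones, and FI libraries were spread most widely. In all, 769 reads of the 96 transcripts were seen in HU against 724459 in the 36 other libraries.

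**Figure D2:**
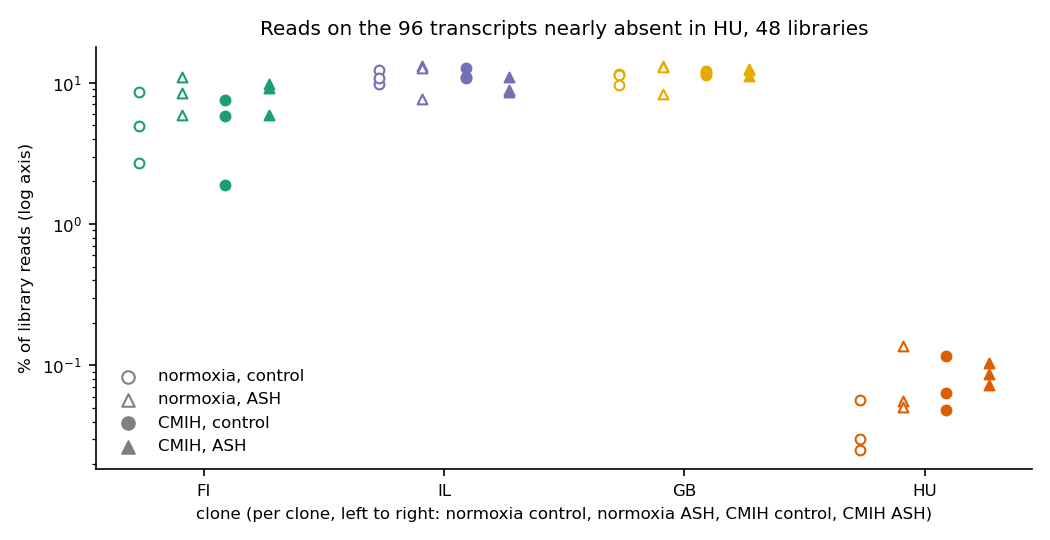
Percent of the reads of each of the 48 libraries (log axis) that fell on the 96 transcripts nearly absent in HU. Circles are controls, triangles ASH, open symbols normoxia and filled symbols CMIH. All 12 HU libraries lie at or under 0.138%, and all 36 others at or over 1.88%.

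The reads left in HU were few and scattered. Of the 96 transcripts, 20 had 0 reads in all 12 HU libraries, 28 had 1 to 3 reads and 48 had 4 or more. The most were those of 52F0.57, at 39.8 to 134 CPM in the 12 HU libraries. Of the 1152 pairs of a transcript and an HU library, 72.5% held 0 reads, compared with 3.39% of the pairs in the other clones. The most reads of any of these transcripts in an HU library was 17. The level left in HU was not a fixed share of the level elsewhere: among transcripts with a read in HU it ran from 0.0760% of the lowest other clone (11F8.62) to 4.91% (18F12.57).

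The lack of reads in HU was spread over levels and lengths. Per kilobase of reference sequence, the 96 transcripts had a median of 151 RPKM in the pooled reads of FI, 201 in IL and 203 in GB, compared with medians of 20.5, 21.4 and 18.4 RPKM over all transcripts in these clones. In HU their median was 1.87 RPKM, against 22.2 RPKM over all transcripts. The transcript with the highest level per length in FI, IL and GB was 47F6.12, with 11659, 18300 and 32328 RPKM. The rule favours abundant transcripts, since a low one cannot reach a high score. Of the 100 transcripts, 84 passed a minimum of 480 reads over the 48 libraries.

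Reference lengths of the 96 ran from 297 to 7422 bases, with a median of 1473 bases against 2313.5 bases over all transcripts. HU libraries as a whole held fewer reads on short transcripts. For the 1229 transcripts under 1000 bases, the median log2 ratio of the HU level to the median of the other clones was -0.48, and for the 1134 transcripts of 5000 bases or more it was 0.71. Of the 96 transcripts, 25 were under 1000 bases and 5 were 5000 bases or longer, and the latter included 11F8.62, with the highest score of all. The part of length in these levels was not tested.

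The highest score belonged to 11F8.62, on contig 11. Its level was 1265 to 11893 CPM in the FI libraries (median 6233), 6198 to 17039 CPM in IL (median 12617) and 7333 to 17104 CPM in GB (median 11642). In HU it was 0 in 8 of 12 libraries and at most 26.8 CPM, 6 reads in all. The pooled level in FI, the lowest of the other 3, was 1316-fold that in HU (95% exact Poisson interval of the HU count, 605 to 3587). The HU libraries do not overlap with any other.

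The next highest score was that of 12F9.50, with 827 to 9132 CPM in FI (median 3386), 5211 to 12792 CPM in IL (median 8547) and 2823 to 5861 CPM in GB (median 4606). HU held 8 reads in all and at most 26.8 CPM in a library. The lowest other clone, GB, was 656-fold higher in pooled CPM (interval 333 to 1520). The carrying clones overlapped with each other and stood apart from HU.

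Next by score, at ranks 3 to 5, were 13F11.45, 13F7.68 and 13F7.52, all on contig 13 and of similar length (2674, 2526 and 2618 bases). For 13F11.45 the libraries held 355 to 4428 CPM in FI (median 2247), 2620 to 6158 CPM in IL (median 3941) and 1503 to 4557 CPM in GB (median 2685). HU held 5 reads of it in all, and 13.8 CPM at most. For 13F7.68 the medians were 2304, 3510 and 2761 CPM in FI, IL and GB, and for 13F7.52 they were 2331, 3811 and 2854 CPM, with 5 and 6 reads in HU. The lowest other clone was 610-fold higher for 13F11.45 and for 13F7.68, and 536-fold higher for 13F7.52. In all 3 transcripts the lowest library of another clone, at 355 CPM or more, lay above the highest of HU, at 27.6 CPM or less.

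Other transcripts, singled out after their values were seen, show how far from absent the rule reached. For 8F29.121 all 12 HU libraries held reads, at 33.4 to 207 CPM (median 59.3), against 727 to 4526 CPM in FI (median 2367), 2293 to 4074 CPM in IL (median 3038) and 3087 to 5666 CPM in GB (median 4775). The pooled level in FI was 29.3-fold that in HU (interval 23.9 to 36.4). HU was low here rather than empty, and its highest library was still below the lowest of any other clone. For 47F6.12 HU held 0 to 107 CPM (median 45.3), FI 2541 to 11689 CPM (median 6395), IL 7091 to 11536 CPM (median 8930) and GB 13568 to 27137 CPM (median 16966). The lowest of the 100 in total reads was 12F20.62, with 0 reads in HU and medians of 8.85, 24.0 and 20.6 CPM in FI, IL and GB. At that depth 6 of the 12 FI libraries held 0 reads as well, so that absence from a single library says little for such a transcript.

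The score alone does not say whether single libraries overlap. For 50 of the 100 transcripts, all 12 libraries of the missing clone lay below all 36 other libraries in CPM, and the missing clone was HU in each case. The same held for 66 of all 6050 transcripts (1.09%) with the clone of their lowest level, and HU was that clone for all 66. The rule and this count rest on the same levels, and nothing is read from the difference. With every library thinned to 16894 reads, the depth of the shallowest, the count fell to 26 of the 100 and 29 of 6050. Overlap could rest on very few libraries, as for 13F19.15, where 2 of the 36 other libraries lay at or under the highest HU library.

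**Figure D3:**
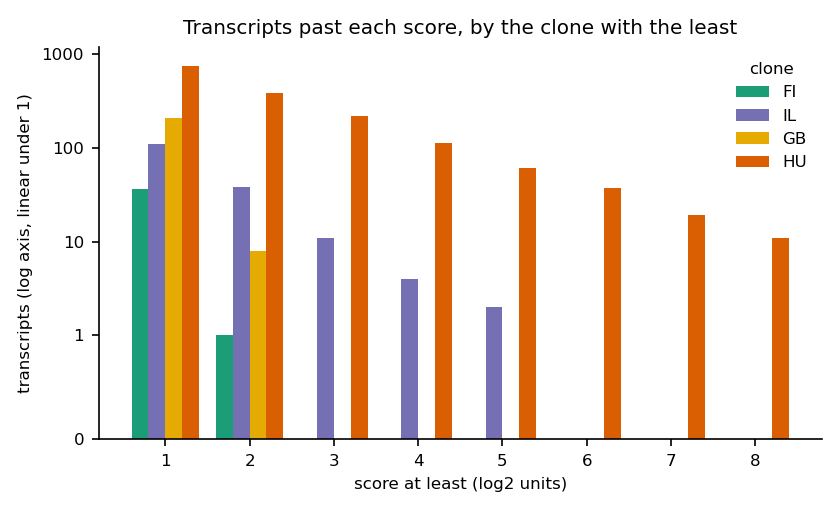
Number of transcripts (log axis, linear under 1) whose score reached each value from 1 to 8, by the clone with the lowest pooled CPM. From a score of 3 upward, FI and GB have 0 transcripts, and from 6 upward HU alone has any.

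The pattern did not stop at the 100 transcripts. A score of 2 or more, about 4-fold or more between the lowest clone and the next lowest, was reached by 391 transcripts that were lowest in HU, 38 lowest in IL, 8 in GB and 1 in FI. HU was not the clone with the most minima: 2133 transcripts (35.3%) were lowest in GB and 1813 (30.0%) in HU. The 50 highest scores held 48 transcripts missing in HU and 2 in IL, and the 200 highest held 190 and 10. At the edge of the 100, ranks 99 and 100 were 29F12.46 (score 4.24, 0 reads in HU) and 18F12.57 (score 4.24, 13 reads in HU). The next 2, outside the 100, were 21F16.3 (score 4.24, 3 reads in HU) and 6F22.68 (score 4.20, 37 reads in HU). The limit of 100 thus separates no group from the rest.

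Among the carrying clones the 96 transcripts were mostly at like levels. In 58 of them the highest of FI, IL and GB was at most 2-fold the lowest, and in 8 it was more than 3-fold, with a median ratio of 1.86. FI was the lowest of the 3 in 73 transcripts, while IL was the highest in 47 and GB in 45. The score rises with the lowest of the carrying clones, so the rule favours transcripts with a high level in all 3. Such counts were not made over all transcripts, and nothing is read from them. Transcripts that differed most among the carriers included 0F54.57, with 1691 pooled CPM in IL against 458 in FI and 357 in GB, and 18F8.23, with 10692 CPM in GB against 3163 in FI and 2663 in IL. The residual SD of log2(CPM + 1) within groups of the carrying clones had a median of 0.70 over the 84 of the 100 transcripts with at least 500 reads. It was 0.76 over all 2361 such transcripts. These sets were not matched for read depth, and nothing is read from the difference. With no minimum, the 100 had a median of 2268 reads and all transcripts one of 377.5.

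A few of the 96 were patchy even in clones that carried them. The level of 1F6.98 was 0 to 417 CPM in FI (median 34.3), 0 to 453 CPM in IL (median 157) and 0 to 398 CPM in GB (median 3.95), with 0 reads in 6 of 12 GB libraries. Likewise 0F1.74 had 0 reads in 6 of 12 GB libraries and reached 516 CPM in another, and 8F28.95 had 0 to 2135 CPM in IL (median 221). Their residual SDs were 3.02, 2.79 and 2.83 on the log2 scale. In these, single libraries of the carrying clones overlapped with those of HU.

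The 100 transcripts lay on 31 of the 176 contigs. Contig 0 held 15 of them (12 missing in HU and 3 in IL) and 7.95% of all transcripts, contig 13 held 13 (12 and 1) and 2.96% of all transcripts, and contig 1 held 11, all missing in HU, and 5.80% of all transcripts. On contig 13, 7.26% of the 179 transcripts were among the 100. Contigs 3, 8 and 18 held 5 each, and the remaining 46 were on 25 contigs. On the small contig 108, 2 of its 9 transcripts were among the 100. Gene models came from the same sources as elsewhere, with 72% by maker against 75.1% of all transcripts.

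**Figure D4:**
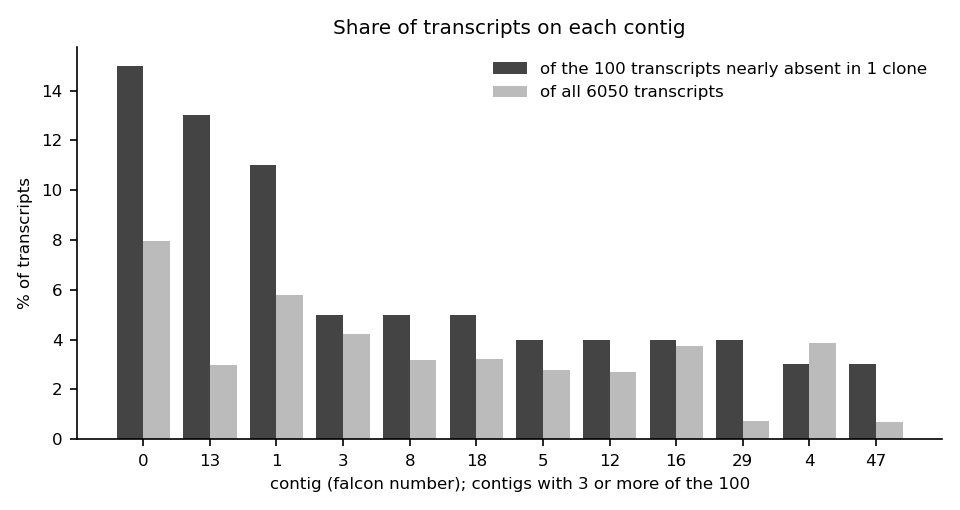
Percent of the 100 transcripts (dark bars) and of all 6050 transcripts (light bars) on each contig that held 3 or more of the 100. Contig 13 holds 13% of the former and 2.96% of the latter, and contig 4 is the 1 contig shown with a smaller share of the 100 than of all.

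In 51 of the 100 transcripts, another one missing in the same clone lay in the same or an adjoining block of gene numbers, and these 51 formed 19 runs of 2 to 4 transcripts. For those missing in HU it was 49 of 96 (51.0%), while 1114 of the 5950 transcripts outside the 100 (18.7%) had a transcript missing in HU at that distance. The blocks were not emptied as a whole. Those of the 18 runs missing in HU held 143 other transcripts, of which 59 (41.3%) were lowest in HU, compared with 30.0% of all transcripts, and 23 reached a score of 2. In 2 of the 19 runs there was no other transcript in the blocks.

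Contig 13 showed this most plainly. In block 7, 4 of 5 transcripts were nearly absent in HU (13F7.68, 13F7.52, 13F7.63 and 13F7.73, with 5, 6, 5 and 6 HU reads). The remaining one, 13F7.102, had 685 CPM in HU against 1042 to 1766 CPM in the other clones. In block 11 the 4 were 13F11.45, 13F11.85, 13F11.84 and 13F11.108, with 3 to 8 reads in HU. Block 19 held 13F19.14 with 0 reads in HU, 13F19.15 with 11 and 13F19.27 with 4, next to 13F19.16, at 54.2 CPM in HU and 53.5 to 74.3 CPM elsewhere. The last of the 12 on this contig, 13F14.70, had 0 reads in HU and 194, 237 and 358 pooled CPM in FI, IL and GB. The lowest of these was 70.2-fold the level of 3 reads over the HU libraries.

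On contig 0, all 3 transcripts of block 54 were nearly absent in HU. The longest, 0F54.58 with 6150 bases, ranked sixth, with 827 to 9034 CPM in FI, 5796 to 13137 CPM in IL and 2417 to 9129 CPM in GB, and at most 30.6 CPM in HU. Its neighbours 0F54.57 and 0F54.73 had 4 reads each in HU. In block 59, 0F59.9, 0F59.74 and 0F59.12 had 3, 2 and 3 reads in HU, while 0F59.42 of the same block had 587 CPM in HU against 599 to 777 CPM in the other clones. Block 57 held 0F57.61 and 0F57.62, with 8 and 9 reads in HU. The other 4 were 0F50.21 (4 reads in HU), 0F46.68 and 0F63.21 (0 reads) and 0F1.74 (3 reads). For 0F46.68 the pooled level in FI, the lowest other clone, was 100.8-fold the level of 3 reads in HU.

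On contig 1, blocks 5 and 6 held 1F5.25, 1F5.99, 1F6.98 and 1F6.99, with 2, 3, 1 and 2 reads in HU. The first had 60 to 570 CPM in FI, 297 to 633 CPM in IL and 162 to 624 CPM in GB, and the ratio of the lowest pooled level to HU was 198 (interval 54.7 to 1633). Of the 21 other transcripts of these blocks, 13 were also lowest in HU and 4 reached a score of 2, such as 1F6.84 with 0 CPM in HU and 295 CPM in IL. Others of the same blocks were not low, such as 1F5.59 with 152 CPM in HU against 45.9 to 64.1 CPM. Both transcripts of block 55, 1F55.72 and 1F55.10, had 0 reads in HU. The other 5 were 1F2.88, 1F21.52, 1F44.44, 1F48.23 and 1F12.41, with 1, 16, 0, 1 and 2 reads in HU. The run on blocks 5 and 6 thus extended beyond the 4 transcripts chosen.

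Some of these neighbours may not be separate measurements. Of 232 pairs on the same contig with the same missing clone and at least 300 reads each, 3 kept their ratio across the 36 other libraries more closely than independent counting allows, with a chi-square per degree of freedom under 0.5. They were 0F57.61 with 0F57.62 (0.0253), 13F7.63 with 13F7.73 (0.235) and 13F7.52 with 13F7.68 (0.336), against a median of 7.02 over the 232 pairs. The first pair had 3208 and 3141 reads in the 36 libraries, and the second had 18111 and 18227 reads on models of the same length, 2539 bases. How the reads of such pairs were assigned is not given in the sources used here, and the members of each pair are reported as uncertain.

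Transcripts with the opposite pattern were sought beside them. Of the 100 transcripts that stood highest in 1 clone over the next, 68 were high in HU, 26 in IL, 6 in GB and 0 in FI. Of the 68 high in HU, 10 lay in the same or an adjoining block as a transcript missing in HU, next to 14 of the 96. Among the 5950 transcripts outside the 100, 1114 (18.7%) lay at that distance, so nothing is read from the 10. No such share was computed for the 14. One of the 10, 18F24.160, had 126 CPM in HU and 5.87 to 23.6 CPM in the other clones, in the same block as 18F24.233 and 18F24.232. In block 12 of contig 29, next to 29F12.46, lay 29F12.69, 29F12.70 and 29F12.32, with 68.0 to 71.7 CPM in HU and 8.29 to 14.6 CPM elsewhere. The other 82 of the 96 had no such neighbour. Beside the 4 transcripts missing in IL there were 0.

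The 4 transcripts missing in IL differed from the 96 in being uneven where they were present. In all 4 the highest carrying clone was more than 3-fold the lowest, none was clear of overlap in single libraries, and they had 11 reads in IL in all. Of those 11, 7 were reads of 0F6.40 in 1 library, IL CMIH control 11. The 6 IL libraries of ASH held 0 reads of the 4 in 1408097.

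Block 6 of contig 0 held 0F6.40 and 0F6.9. In GB, 0F6.40 had 142 to 3550 CPM (median 1658), in FI 0 to 1982 CPM (median 441) and in HU 0 to 684 CPM (median 87.8). In IL 10 of 12 libraries were at 0 and the highest was 25.4 CPM. The pooled level in HU, the lowest of the other 3, was 81.8-fold that in IL (interval 41.5 to 189). For 0F6.9 IL held 0 reads, and GB held 81.2 to 1194 CPM (median 636), FI 0 to 619 CPM (median 164) and HU 0 to 152 CPM (median 24.9). The pooled level in HU, the lowest other clone, was 51.3-fold the level of 3 reads in IL. The FI library at 0 for both was the shallowest of the 48, with 16894 reads.

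The other 2 were 0F57.47 and 13F18.101. The former was patchy in all carrying clones: it had 0 reads in 5 of 12 FI, 1 of 12 GB and 4 of 12 HU libraries, and reached 436 CPM in FI, 639 CPM in GB and 778 CPM in HU. In GB, 180 of its 378 reads came from a single library, CMIH ASH 4. Its residual SD within groups, 3.49 on the log2 scale, was the highest of the 100. In contrast, 13F18.101 was even in GB, with 56.8 to 115 CPM, and had 0 to 181 CPM in HU (median 59.2) and 0 to 66.6 CPM in FI (median 29.1). IL held 0 of its reads. The lowest other clone, FI, held 16 reads in all, and its pooled level was 18.3-fold the level of 3 reads in IL.

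For a description by oxygen treatment, the rule was repeated within the 24 control, 24 ASH, 24 normoxia and 24 CMIH libraries, and in each all 96 transcripts were lowest in HU, with scores of at least 2.05, 3.80, 2.37 and 2.91. As the same libraries had chosen the transcripts, this was nearly fixed by the choice. Of the 96, 68, 81, 81 and 75 were again among the 100 highest, as were 3 of the 4 missing in IL each time. The 12 HU libraries stayed near 0 in every treatment. The 96 transcripts took 0.0253% to 0.0572% of HU reads in normoxia controls, 0.0504% to 0.138% in normoxia ASH, 0.0483% to 0.117% in CMIH controls and 0.0727% to 0.104% in CMIH ASH. These ranges overlap, except that all 3 CMIH ASH libraries lay above all 3 normoxia controls.

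The response to treatment was not a term of the rule. It was not fully free of the rule, since the pooled reads behind the score mixed treatments, most unevenly in FI, as given below. It was tested with edgeR's quasi-likelihood F test and Benjamini-Hochberg adjustment over all 6050 transcripts. In all 48 libraries, with ASH tested jointly with its interactions, 3 of the 100 transcripts had an adjusted p under 0.05, compared with 33 of 6050 (0.545%). They were 0F57.61, 0F57.62 and 13F19.15. The call of 13F19.15 (adjusted p = 0.0372, edgeR) was lost in 16 of 48 fits that left out 1 library, with an adjusted p of up to 0.0948 without FI CMIH control 12. By the average ASH effect alone, 3 of the 100 passed, compared with 36 of 6050 (0.595%): 0F57.61 and 0F57.62 again, and 1F21.52 (adjusted p = 0.0399, edgeR) in place of 13F19.15 (adjusted p = 0.0694, edgeR). An unadjusted p under 0.05 for ASH, joint test, was seen in 12 of the 100 and in 266 of 6050 (4.40%).

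CMIH passed in 0 of the 100, compared with 1 of 6050 (0.0165%), and in 0 of the 100 by DESeq2. Its unadjusted p was under 0.05 in 11 of the 100 and in 263 of 6050 (4.35%). CMIHxASH passed in 0 of the 100, compared with 0 of 6050 (0%), and in 0 of the 100 by DESeq2. Its unadjusted p was under 0.05 in 4 of the 100 and in 148 of 6050 (2.45%). Since a clone with almost no reads says little of a response, each transcript was also tested in the 36 libraries of the carrying clones.

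Without HU, 4 of the 96 transcripts rose in ASH and 0 fell, compared with 33 of 6050 (0.545%), and CMIH passed in 0 of the 96, compared with 1 of 6050 (0.0165%), and in 0 of the 96 by DESeq2. An unadjusted p under 0.05 for CMIH was seen in 12 of the 96 (12.5%) and in 403 of 6050 (6.66%). Without IL, ASH and CMIH passed in 0 of the 4 transcripts missing in IL (0 and 0 with an unadjusted p under 0.05, and 0 by DESeq2), compared with 34 (0.562%) and 1 (0.0165%) of 6050. The 4 that rose were 0F57.61, 0F57.62, 13F19.15 and 0F54.57. As the first pair may share reads, they stand for 3 separate measurements. The fits of all clones and of the carrying clones share 36 libraries and are not independent of each other.

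The clearest rise was that of 0F57.61. In IL its level was 42.4 to 171 CPM in 6 controls (median 109) and 388 to 1072 CPM in 6 ASH libraries (median 735). In FI it was 48.8 to 343 CPM (median 82.8) and 199 to 1053 CPM (median 395), and in GB 208 to 485 CPM (median 262) and 205 to 1742 CPM (median 762). The groups did not overlap in IL and overlapped in FI and GB. The average log2 fold change in the carrying clones was 2.03 (SE 0.27, adjusted p = 4.84e-06, edgeR). For 0F57.62 it was 2.01 (SE 0.28, adjusted p = 9.03e-06, edgeR), with nearly the same levels in each library. In HU, 0F57.61 had 6 reads in ASH and 2 in controls.

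For 13F19.15, FI held 0 to 167 CPM in controls (median 78.7) and 248 to 832 CPM in ASH (median 380). In IL the levels were 166 to 331 CPM (median 197) and 168 to 514 CPM (median 378), and in GB 154 to 264 CPM (median 235) and 167 to 476 CPM (median 282). Only in FI did the groups not overlap, and whether the clones differed in this was not tested. The average log2 fold change was 1.04 (SE 0.23, adjusted p = 0.0102, edgeR).

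The weakest of the 4 was 0F54.57. Its level was 21.2 to 233 CPM in FI controls (median 75.3) and 248 to 907 CPM in FI ASH libraries (median 480). In GB it was 81.2 to 224 CPM (median 181) and 260 to 745 CPM (median 500), and in IL, where it was highest, 831 to 3073 CPM (median 1380) and 1100 to 2214 CPM (median 1608). Groups were apart in FI and GB and overlapped in IL. The average log2 fold change was 1.23 (SE 0.29, adjusted p = 0.0344, edgeR), and the call was lost in 17 of the 36 fits that left out 1 library, with an adjusted p of up to 0.0769 without FI CMIH control 12.

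**Figure D5:**
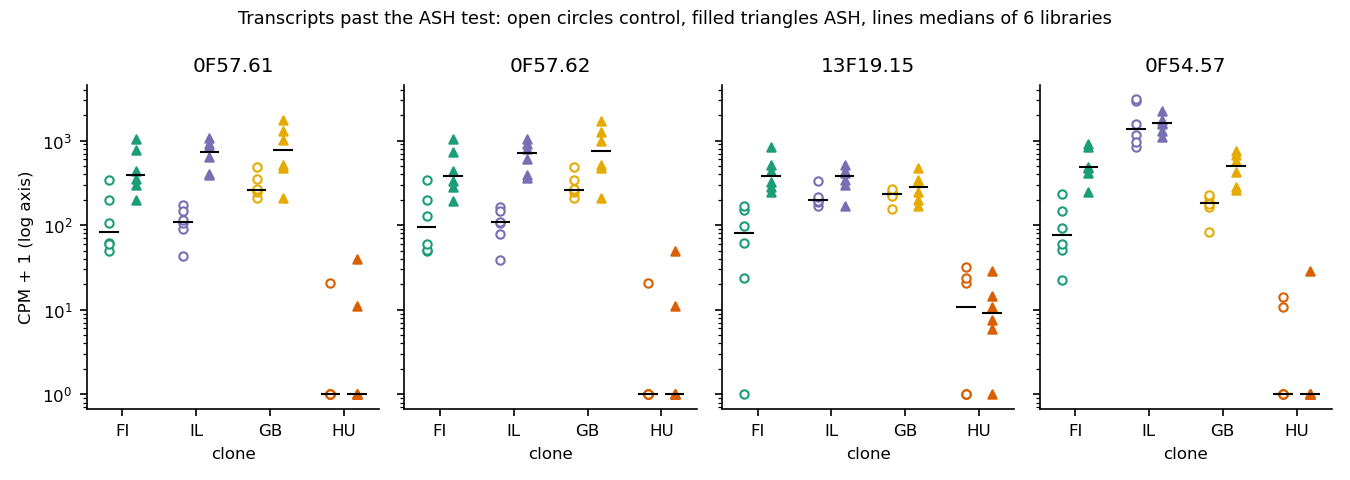
CPM plus 1 (log axis) in each of the 48 libraries for the 4 transcripts that rose in ASH, by clone, with open circles for controls, filled triangles for ASH and lines at the medians of 6 libraries. For 0F57.61 in IL the controls lie at or under 171 CPM and the ASH libraries at or over 388 CPM, and HU lies near 0 throughout.

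Over all 96 transcripts, with the 4 included, the average log2 fold change in ASH in the carrying clones had a median of 0.28. The median over all transcripts was 0.03. The value was above 0 in 79 of the 96 and in 54.7% of all transcripts. An unadjusted p under 0.05 was seen in 27 of the 96 (28.1%, 24 of them upward) and in 413 of all 6050 (6.83%). The 96 had a median of 2285.5 reads, against 377.5 over all transcripts. Neither these shares nor those of the tests above were matched for read depth. Of the carrying clones, FI had the highest shift: the median log2 ratio of mean CPM plus 1 in ASH over controls was 0.86 in FI, -0.15 in IL and 0.08 in GB for the 96 transcripts, and between -0.02 and 0.00 in each for the 2442 transcripts with at least 480 reads. In FI the ASH libraries gave 70.9% of the pooled reads that entered the score, and FI was the carrying clone with the lowest level in 73 of the 96, so that the choice of the transcripts was not free of the ASH level in FI. The 96 transcripts took 5.88% to 11.0% of the reads of FI ASH libraries and 1.88% to 8.64% of FI controls. The part of the choice in the median shift was not tested.

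For CMIH the median over the 96 transcripts was -0.05 on the log2 scale in the carrying clones, compared with 0.05 over all transcripts. The values ran from -0.75 to 1.02. Of the 4 missing in IL, the average log2 fold changes in ASH ran from 0.09 for 13F18.101 (SE 0.28) to 0.94 for 0F57.47 (SE 0.73), and the adjusted p was 1 for both (edgeR).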

How the data were processed

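RNA from 48 pools of 2 females was sequenced as cDNA on the Nanopore MinION. The authors mapped reads to a *D. magna* reference transcriptome, with 1 isoform per gene (its longest), and deposited counts of reads for 6050 transcripts, those that had 72 or more over the samples, and RPKM scaled by length and by the total of these transcripts. SAMtools is listed in the submitters' processing notes.

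Counts were pooled by clone for the score. Reference lengths were computed from the deposited counts and RPKM. Tests used edgeR 4.0.16 in R 4.3.3 with TMM, its quasi-likelihood F test and an adjusted p of 0.05 (Benjamini-Hochberg) as the limit. All 48 libraries were fitted with a term for clone, with ASH, CMIH and CMIHxASH, and with the interaction of each treatment term with habitat type. Habitat type had no term of its own, since the clone term holds it. Fits of 36 libraries had clone, ASH, CMIH and CMIHxASH. Standard errors are approximate, from the F statistic. Replicates are pools, not tanks, and p-values measure the spread between pools. Alternatives included DESeq2 1.42.0. Steps were tested on simulated data. Python 3.11.15 with numpy 2.4.6, pandas 2.3.3, scipy 1.17.1 and matplotlib 3.10.9 was used elsewhere.

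Named transcripts are the 5 highest scores per missing clone, those past a test, those of the 3 contigs with the most transcripts sharing a missing clone, and the 2 ranks on each side of the limit of 100. Others named were chosen after their values were seen. The 100 transcripts and all rules were chosen with earlier results of these data known. Clone differences were given no test, and sequences are not reported here.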

Additional observations from a re-analysis of the deposited data

How the results depend on the processing

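Under 12 other ways of scoring (0.5 or 5 CPM added, mean or median of the 12 libraries, TMM factors, clones thinned to the shallowest, deposited RPKM, at least 480 reads, or the 24 libraries of 1 treatment), 90 to 98 of the 100 highest scores were missing in HU. The same transcripts were 71 to 95 of the 100, except 64 with the median of the 12 libraries. Without 1 library, 94 to 98 were missing in HU and 92 to 100 were the same transcripts. The share with a neighbour of the same missing clone was 51% (46% in the 50 and 63% in the 200 highest). With libraries thinned to the shallowest, 26 rather than 50 of the 100 had no overlap. In all clones, DESeq2's likelihood ratio test called 6 of the 100 for ASH, with 40 of 6050, in place of 3 with 33. In the carrying clones, DESeq2 called 8 of the 96, with 55 of 6050, in place of 4 with 33. A minimum of 480 reads over the libraries fitted gave 7 of the 81 that passed it, with 35 of 2066. The cause was not tested. Leaving out 1 library gave 2 to 4 calls in all clones and 3 to 5 in the carrying clones, and with 1 transcript kept of each pair that may share reads, chosen after seeing the data, there were 2 and 3. CMIH and CMIHxASH stayed at 0 calls under every alternative run. 0F57.61 and 0F57.62 passed under every alternative, with log2 fold changes of 1.76 to 1.96 in all clones and 1.89 to 2.16 in the carrying clones. In all clones, 13F19.15 (adjusted p = 0.0372, edgeR) was lost without 1 library in 16 of 48 fits, with an adjusted p of up to 0.0948 (without FI CMIH control 12). These were FI CMIH ASH 6, CMIH control 10, 11 and 12, normoxia ASH 1 and 3 and normoxia control 7 and 8, GB normoxia ASH 2 and normoxia control 7 and 8, and IL CMIH ASH 5 and 6, CMIH control 10 and normoxia control 7 and 9. In the carrying clones it passed in all 36. 0F54.57 was lost in 17 of 36, without FI CMIH ASH 4 and 5, CMIH control 10, 11 and 12 and normoxia control 7 and 9, GB CMIH ASH 4 and 6, CMIH control 10, 11 and 12, normoxia ASH 2 and normoxia control 7 and 9, or IL normoxia control 8 and 9. No paired analysis was possible because the numbers in the labels are barcodes, groups of a clone share none of them, and which samples shared a replicate library is not stated.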
